A study of Mus musculus with 7 samples.

Results

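The genes described here are 10 members of the NLRP3 inflammasome and interleukin-1 family, followed in the cortex of APP/PS1 mice fed a control diet (CD) or a ketogenic diet (KD). They were taken by gene symbol from a fixed list, which was drawn up with earlier results of these data known. The list held Nlrp3, Pycard and Casp1 of the inflammasome, the ligands Il1a, Il1b, Il18 and Il33, the receptor chains Il1r1 and Il1rap, and Tnf. All 10 were among the 23413 symbols with counts, and 9 of them were among the 15881 genes that had enough counts to be tested. Tnf was not.

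RNA was sequenced from the cortex of 7 mice, 1 mouse per library. There were 4 CD mice (replicates 1 to 4, below CD 1 to CD 4) and 3 KD mice (KD 1 to KD 3). All 7 carried both APP/PS1 transgenes (a mutant human amyloid precursor protein and a mutant presenilin), so the comparison is of diets within this Alzheimer's disease model, and it holds no wild-type mice. The mice were 13 months old, were kept in single cages from 6 months of age, and ate either diet for 7 months. CD, which the sample labels call SD, drew 74% of its energy from carbohydrate, 16% from fat and 10% from protein. KD held less than 0.5% of its energy as carbohydrate, 90% as fat and the same share as protein. Both sexes were used in the study, but the labels do not give the sex of the mouse behind each library.

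NLRP3 is a cytosolic sensor that assembles, on danger signals such as crystals, aggregates or a loss of cell potassium, with the adaptor ASC (encoded by Pycard) and the protease caspase-1 (Casp1). Active caspase-1 cuts the precursors of IL-1β and IL-18 into their secreted forms, while IL-1α and IL-33 are active without it and act as alarm signals when cells are damaged. IL-1α and IL-1β signal through a receptor made of IL1R1 and the shared co-receptor IL1RAP, which IL-33 uses as well, and tumour necrosis factor (Tnf) drives much of the same NF-κB response. Counts of mRNA do not measure cleavage or secretion, so the values below bear on the supply of these components and not on inflammasome activity. In whole cortex, fewer cells of a type and less RNA per cell cannot be told apart.

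Libraries held from 22272883 to 36614954 counts, and no library repeated another. The expression of Xist, the RNA that coats the inactive X chromosome, lay between 242 and 526 CPM (counts scaled to a common library total) in CD 1, CD 2, KD 1 and KD 2 and at most at 3.08 CPM in the other 3 libraries, which instead held 301 to 346 CPM of the Y-linked gene Ddx3y. The cortical neuron markers were abundant in every library, with a summed level of 4325 to 6308 CPM over 7 genes. Oligodendrocyte markers, summed over 8 genes, ranged from 1184 to 4499 CPM in CD and from 1218 to 4411 CPM in KD, and were lowest in CD 3 and KD 3. Meningeal fibroblast markers, summed over 6 genes, were at 279 CPM in CD 4 and 129 CPM in KD 3 and at no more than 72.3 CPM in the others, and olfactory bulb markers, summed over 5 genes, were highest in the same 2 libraries at 66.7 and 16.5 CPM.

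No member passed the test for a difference between the diets. With edgeR's quasi-likelihood test, 0 of the 9 tested members had a raw p of at most 0.01, which 0.321% of all tested genes had, and 0 had a raw p under 0.05, which 3.19% of all tested genes had (1.66% higher and 1.52% lower in KD). After Benjamini-Hochberg adjustment in edgeR, the percentage of all genes with an adjusted p under 0.05 was 0, and no member had one. DESeq2 gave 0 members with a raw p under 0.05 as well. The log2 fold change (KD over CD) was above 0 for 3 members (Nlrp3, Pycard and Il18) and below 0 for 6, with a median of -0.18 beside -0.0033 for all tested genes. The CD and KD ranges of CPM overlapped for all 10 members, while 4.2% of all tested genes had groups that did not overlap.

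**Figure D1:**
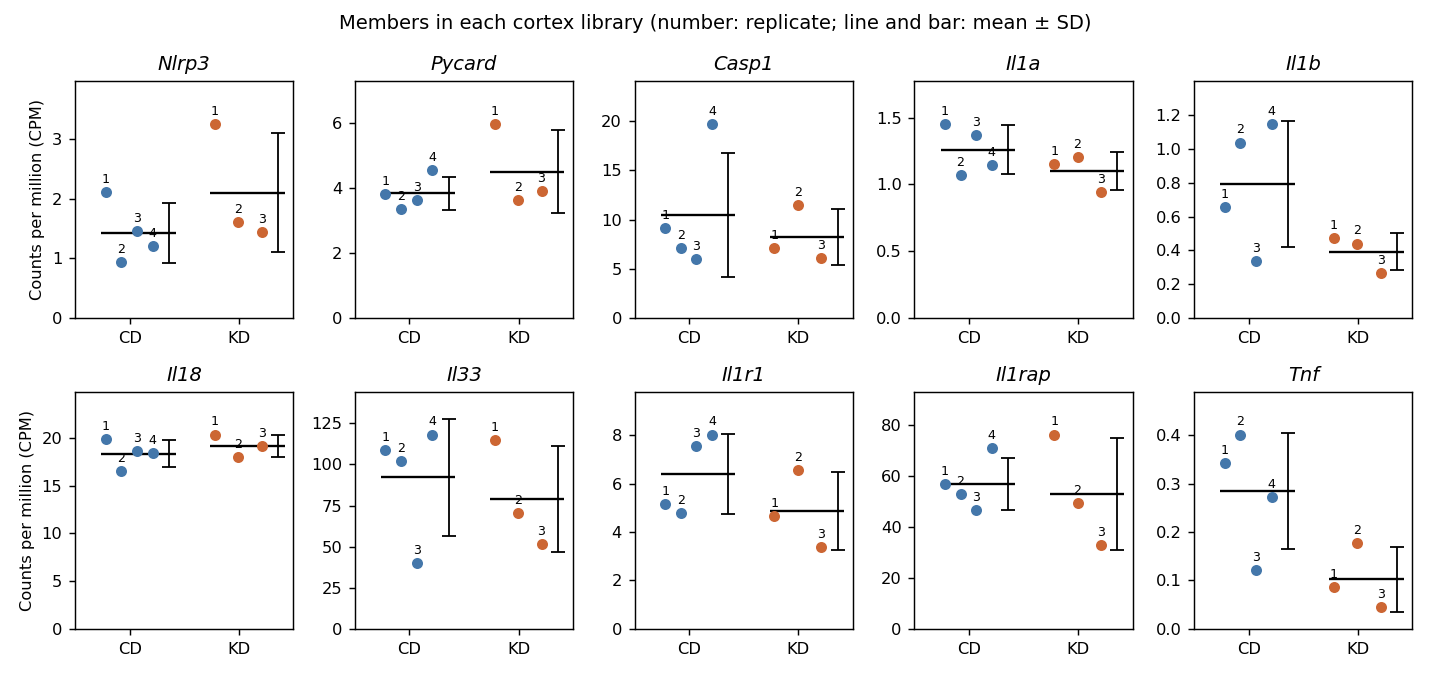
CPM (counts scaled to a common library total) of each member (vertical axes, from 0) in the 4 CD libraries (blue) and the 3 KD libraries (orange). The number at a point is the replicate, the horizontal line the group mean and the bar its SD. The groups overlap in all 10 panels, Tnf and Il1b sit lowest, and single libraries (CD 4 for Casp1, CD 3 for Il33, KD 1 for Nlrp3 and Pycard) stand away from their group.

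The members differed widely in level from each other. Set side by side per kilobase of merged exons, Il33 was the most abundant member, with 30.0 ± 11.1 CPM per kb (SD, n = 7), followed by Il18 with 18.1 ± 1.24, Casp1 with 6.35 ± 3.27 and Il1rap with 4.84 ± 1.29. Pycard (1.09 ± 0.236), Il1r1 (0.901 ± 0.267) and Il1a (0.604 ± 0.0881) came next, and Nlrp3 (0.423 ± 0.189), Il1b (0.326 ± 0.181) and Tnf (0.126 ± 0.0824) were the lowest, all in CPM per kb over the same 7 libraries. Il1b, Tnf and the sensor Nlrp3 were therefore at the bottom of the order and Il33 and Il18 at the top, with the alarm cytokine Il1a at rank 7. Neighbours in the order did not always separate: Il33 was above Il18 in 5 of 7 libraries, Casp1 above Il1rap in 5, Pycard above Il1r1 in 4, Il1a above Nlrp3 in 6, and Nlrp3 above Il1b in 5. Il18 was above Casp1, Il1rap above Pycard, Il1r1 above Il1a, and Il1b above Tnf in all 7 libraries. Merged exons join those of all annotated transcripts of a gene, and the order depends on this length. It was 11360 bases for Il1rap, 3800 for Pycard and 1497 for Casp1.

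**Figure D2:**
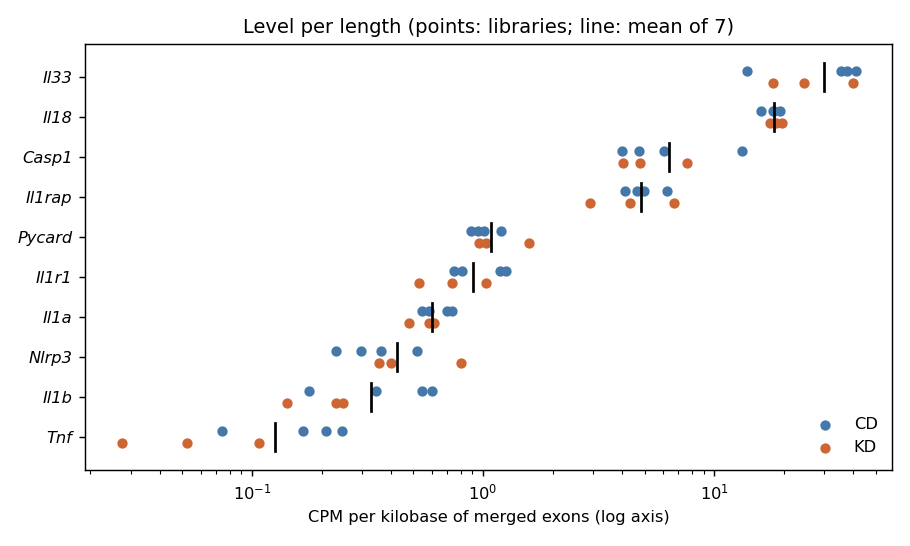
Level of each member in CPM per kilobase of merged exons (horizontal log axis), with 1 point per library (CD blue, KD orange) and a black line at the mean of all 7. Il33 and Il18 are at the top, from 30.0 to 18.1 CPM per kb on average, and Il1b and Tnf at the bottom, at 0.326 and 0.126 CPM per kb.

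Promoter sequences of 4 cytokine genes are shown because they share a feature near the start. In the RefSeq promoter sequences of GRCm38.p6, which gave 13 windows of 250 bases before a start for the 10 members, the letters TATAAA were present on either strand for 5 members (Il1a, Il1b, Il18, Il33 and Tnf). Counted by window, as the background is, they were in 6 of 13 windows and in 12.4% of all 32817 promoters of that length. On the gene's own strand and 25 to 35 bases before the start, a window set after the hits had been seen, they were present in 4 of the 13 windows, each of a different member, and in 1.76% of all promoters. All 4 are cytokines, and Il18, the inflammasome genes and the receptor chains had no such match. The 100 bases that end at the start are printed below on the gene's strand with these letters in capitals. They lie just before the annotated gene for Il1a (chr2:129309973-129310072, minus strand), Il1b (chr2:129371140-129371239, minus strand) and Tnf (chr17:35202008-35202107, minus strand). For Il33 (chr19:29945690-29945789, plus strand) they lie before the second of its RefSeq starts, inside an intron of the longer transcripts.

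Il1a: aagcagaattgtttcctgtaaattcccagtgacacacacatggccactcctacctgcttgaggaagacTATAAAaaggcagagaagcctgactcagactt

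Il1b: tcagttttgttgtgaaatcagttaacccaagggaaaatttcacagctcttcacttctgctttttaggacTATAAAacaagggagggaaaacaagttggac

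Il33: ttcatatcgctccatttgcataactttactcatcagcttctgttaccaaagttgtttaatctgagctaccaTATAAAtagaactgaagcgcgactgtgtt

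Tnf: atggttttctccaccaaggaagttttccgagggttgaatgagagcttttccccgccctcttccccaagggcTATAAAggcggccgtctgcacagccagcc

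In these sequences the capitals begin 32 bases before the start for Il1a, 31 for Il1b, 29 for Il33 and 29 for Tnf. The outline of an NF-κB site, GGG and CC set 5 bases apart, was present on either strand in the 250 bases of 5 members (Nlrp3, Casp1, Il1r1, Il1rap and Tnf). That is 5 of 13 windows, a share below the 45.8% of all promoters. TGACTCA, the outline of an AP-1 site, was present in 1 of 13 windows, that of Il1a, and in 4.46% of all promoters. No chromatin or binding data belong to these libraries, and a match of letters does not show that a factor binds.

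The sensor Nlrp3 (mm10 chr11:59541568-59566956, plus strand, 11 merged exons) had 2.11, 0.936, 1.46 and 1.20 CPM in CD 1 to CD 4 and 3.25, 1.62 and 1.44 CPM in KD 1 to KD 3. These came from 28 to 76 counts per library, so that it was low but detected in every mouse. KD 1 was the highest library and lay above all CD libraries, while KD 2 and KD 3 lay inside the CD range. The group means were 1.43 ± 0.503 CPM in CD (SD, n = 4) and 2.10 ± 0.999 CPM in KD (SD, n = 3), a log2 fold change of 0.56 (SE 0.40, 95% interval -0.35 to 1.48, edgeR adjusted p = 0.979). Without KD 1 it was 0.10 on the log2 scale.

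The adaptor Pycard (chr7:127989708-127993867, minus strand, 3 merged exons) had 3.82, 3.38, 3.63 and 4.56 CPM in CD 1 to CD 4 and 5.99, 3.64 and 3.91 CPM in KD 1 to KD 3. KD 1 was the highest library, as it was for Nlrp3, and the remaining KD values lay among those of CD. The log2 fold change was 0.24 (SE 0.23, interval -0.27 to 0.76, edgeR adjusted p = 0.979) and was -0.02 without KD 1. An antisense gene overlaps its exons by 485 bases, and reads of the 2 strands could be mixed if the counting ignored strand.

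KD 1 was also the library with the highest summed level of microglial markers, the immune cells of the brain in which Nlrp3 and Pycard are mainly made. Over 12 genes the sum was 503 to 820 CPM in CD and 652 to 922 CPM in KD. Of these 12 microglial genes, 10 had a log2 fold change above 0, as did 49.0% of all tested genes. A raw p under 0.05 in edgeR was found for 2 of the 12, both higher in KD, beside 1.66% of all tested genes. They were Itgam and Csf1r, the receptor for the growth factor microglia depend on, both with an edgeR adjusted p of 0.979. Itgam, which encodes the CD11b integrin chain, was at 31.9 ± 4.79 CPM in CD (SD, n = 4) and 43.9 ± 6.41 CPM in KD (SD, n = 3), with a log2 fold change of 0.47 (SE 0.16, edgeR adjusted p = 0.979). The other microglial genes examined singly, among them Clec7a from a separate list of plaque-associated microglia, had raw p-values above 0.05 in edgeR. Aif1 (Iba1) had a log2 fold change of 0.35 (SE 0.24), Cd68 of 0.14 (SE 0.19) and Clec7a (Dectin-1) of 0.59 (SE 0.40). In the plaque-associated list 7 of 9 genes had a log2 fold change above 0, with Apoe and Spp1 below, and none had a raw p under 0.05. Its sum was 727 to 985 CPM in CD and 771 to 960 CPM in KD. Over the 7 libraries, Pycard and the microglial markers had a Pearson r of 0.354 (exact permutation p = 0.430, adjusted p = 0.608 over 24 relations of members with marker lists) and a Spearman rho of 0.179 (exact permutation p = 0.713, adjusted p = 0.815), with r at 0.375 without CD 4 and KD 1. The part of these cells in the Nlrp3 values was not tested.

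The protease Casp1 (chr9:5298517-5307265, plus strand, 10 merged exons) had 9.12, 7.09, 5.98 and 19.7 CPM in CD 1 to CD 4 and 7.14, 11.5 and 6.06 CPM in KD 1 to KD 3. CD 4, with 722 counts, held the highest value, and the other CD libraries overlapped KD. The means were 10.5 ± 6.30 CPM in CD (SD, n = 4) and 8.22 ± 2.86 CPM in KD (SD, n = 3), a log2 fold change of -0.32 (SE 0.42, interval -1.27 to 0.63, edgeR adjusted p = 0.982). Without CD 4 the direction turned and the log2 fold change was 0.15.

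CD 4 stood apart for markers of other cells too. It held the highest sums of meningeal fibroblast (279 CPM) and olfactory bulb markers (66.7 CPM) of all libraries. Its 7 endothelial markers summed to 302 CPM, beside 182 to 213 CPM in the other CD libraries and 172 to 224 CPM in KD. The 6 border macrophage markers, genes of the macrophages along vessels and meninges such as Mrc1 and Lyve1, summed to 46.9 CPM in CD 4 and to 13.9 to 25.3 CPM in the other CD libraries, beside 16.0 to 20.7 CPM in KD. None of them was at 0, and all 6 were tested, with log2 fold changes below 0, while 49.0% of all tested genes were above 0. Away from CD 4 these markers and Casp1 did not keep the same order. CD 3 had 25.3 CPM of the markers and the lowest Casp1 (5.98 CPM), and KD 2 had 16.0 CPM of the markers and 11.5 CPM of Casp1. Markers of blood monocytes and neutrophils were low, and 8 of the 9 listed genes were in the files and 3 had enough counts to be tested. Their sum was 0.969 to 4.40 CPM in CD, highest in CD 4, and 1.29 to 1.37 CPM in KD. The monocyte genes Ccr2 and Ly6c2 had 88 and 23 counts in CD 4, beside 9 to 26 and 0 to 4 counts in the other libraries. In CD 4 they made up 2.40 and 0.628 of the summed 4.40 CPM, and in CD 3 0.793 and 0.0305 of 2.53 CPM. The remaining genes of this list were therefore together higher in CD 3 than in CD 4, and are not given singly. Microglial markers were lowest in CD 4. With them Casp1 had a Pearson r of -0.423 (exact permutation p = 0.346, adjusted p = 0.593) and a rho of -0.036. Without CD 4 and KD 1, r was 0.767 over 5 libraries. The genes whose log2 CPM followed Casp1 most closely over the 7 libraries were Itgal, a leukocyte integrin chain (Pearson r = 0.986), C5ar1, the complement C5a receptor (r = 0.956), and Lgr6 (r = 0.955), as a description of 15880 genes ranked. The part of these cells in the Casp1 values was not tested.

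**Figure D3:**
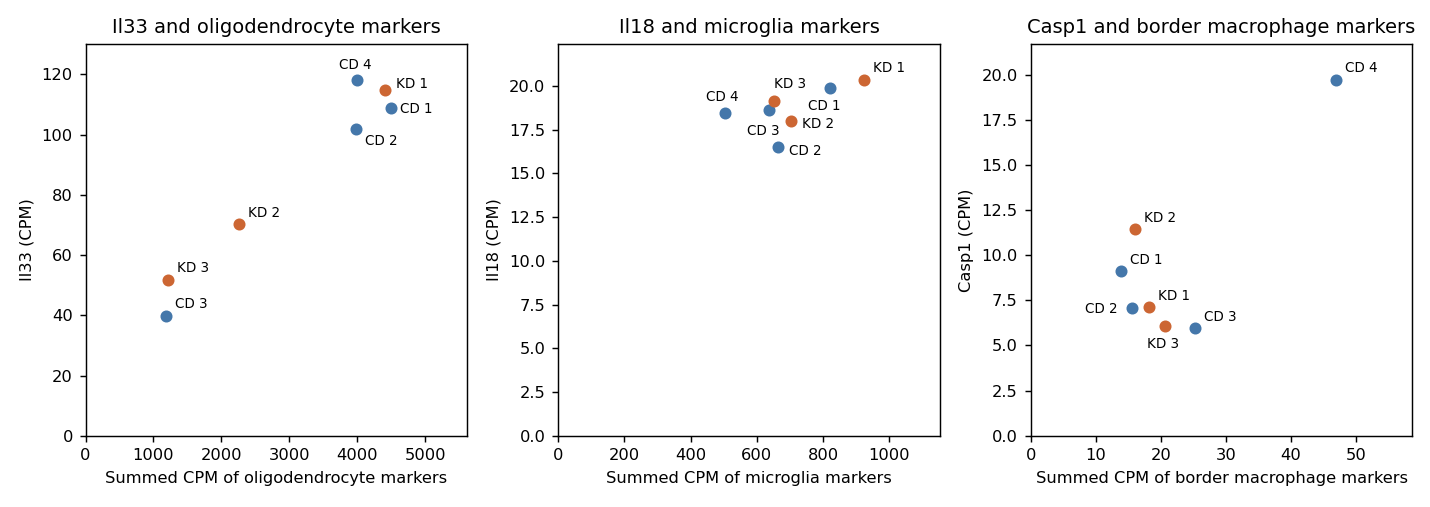
Il33, Il18 and Casp1 (vertical axes, CPM) against the summed CPM of the oligodendrocyte, microglia and border macrophage markers (horizontal axes), with 1 point per library, CD in blue and KD in orange. Il33 is low where the oligodendrocyte sum is low (CD 3, KD 3 and KD 2), and Il18 stays between 16.5 and 20.4 CPM. CD 4 is alone at 19.7 CPM of Casp1 and 46.9 CPM of border macrophage markers. CD 3, with 25.3 CPM of these markers, has the lowest Casp1 (5.98 CPM).

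Il18 (chr9:50554827-50581840, plus strand, 8 merged exons), which encodes a caspase-1 substrate, was the steadiest member. It had 19.9, 16.5, 18.6 and 18.4 CPM in CD 1 to CD 4 and 20.4, 18.0 and 19.1 CPM in KD 1 to KD 3, from 426 to 697 counts per library. The highest library was 1.23 times the lowest, and the groups overlapped. The means were 18.4 ± 1.40 CPM in CD (SD, n = 4) and 19.2 ± 1.17 CPM in KD (SD, n = 3). Its log2 fold change of 0.07 (SE 0.10, edgeR adjusted p = 0.983) had the narrowest interval of all members, from -0.16 to 0.30.

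Il1b (chr2:129364570-129371139, minus strand, 6 merged exons) encodes the main secreted product of the inflammasome and was near the bottom of detection. It had 23, 31, 11 and 42 counts in CD 1 to CD 4 and 11, 15 and 6 counts in KD 1 to KD 3, or 0.655, 1.04, 0.336 and 1.15 CPM and 0.470, 0.441 and 0.269 CPM. Of the CD libraries, 3 lay above every KD library, and CD 3 lay among the KD values. The means were 0.794 ± 0.371 CPM in CD (SD, n = 4) and 0.394 ± 0.108 CPM in KD (SD, n = 3), and the log2 fold change was -0.98 (SE 0.50, interval -2.13 to 0.16), the largest among the tested members in size, with an edgeR adjusted p of 0.979. Pooled over the group, CD gave 107 counts or 0.796 CPM (exact Poisson 95% interval 0.652 to 0.962) and KD 32 counts or 0.402 CPM (0.275 to 0.567). These intervals cover counting error only and not the spread between mice, which was wide. Without CD 3 the log2 fold change was -1.23 (edgeR adjusted p = 0.674), and without CD 4 it was -0.76. Without CD 3 the groups no longer overlapped for Il1b and Tnf, while 14.4% of all tested genes were then without overlap.

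Il1a (chr2:129299610-129309972, minus strand, 7 merged exons), the alarm cytokine next to Il1b on the chromosome, had 1.45, 1.07, 1.37 and 1.15 CPM in CD 1 to CD 4 and 1.15, 1.20 and 0.943 CPM in KD 1 to KD 3. The counts were 21 to 51 per library. KD 3 was the lowest library and the other 2 KD libraries lay inside the CD range, with a log2 fold change of -0.18 (SE 0.28, interval -0.81 to 0.45, edgeR adjusted p = 0.983). The antisense gene Gm14023 overlaps its exons by 222 bases and held 59 counts over all libraries together.

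Il33 (chr19:29925114-29960718, plus strand, 10 merged exons) is a nuclear alarm cytokine that in the brain is made largely by oligodendrocytes and astrocytes. It was the member with the most counts, from 1154 to 4329 per library. The values were 108.9, 101.9, 39.9 and 118.2 CPM in CD 1 to CD 4 and 114.8, 70.4 and 51.8 CPM in KD 1 to KD 3. One CD library, CD 3, was the lowest of all, and KD 1 lay among the 3 high CD libraries, so that the groups overlapped over nearly their whole range. The means were 92.2 ± 35.5 CPM in CD (SD, n = 4) and 79.0 ± 32.4 CPM in KD (SD, n = 3), a log2 fold change of -0.21 (SE 0.38, interval -1.08 to 0.67, edgeR adjusted p = 0.983), and 0.03 without KD 3.

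Libraries high in Il33 were those high in oligodendrocyte markers, in both diet groups. Over the 7 libraries, its log2 CPM and the mean log2 CPM of the 8 oligodendrocyte markers had a Pearson r of 0.980 (exact permutation p = 0.00635, adjusted p = 0.0651 over 24 relations) and a Spearman rho of 0.857 (exact permutation p = 0.0238, adjusted p = 0.114). Without CD 3 and KD 3, the libraries farthest from the median of the marker level, r was 0.979 over 5 libraries. With the 7 astrocyte markers r was 0.909 (exact permutation p = 0.00813, adjusted p = 0.0651) and rho 0.929 (adjusted p = 0.0984), the highest rho of the 24 relations. Without the same 2 libraries r was 0.483, so the size of r depended on them. With the endothelial markers r was 0.596 (exact permutation p = 0.171, adjusted p = 0.410) and rho 0.786 (exact permutation p = 0.0480, adjusted p = 0.192). There r was 0.423 without CD 4 and KD 3. None of the relations reached an adjusted p under 0.05. The genes most like Il33 over the 7 libraries were Nipal4 (r = 0.998), Plxnb3 (r = 0.989) and Fa2h (r = 0.987), the last an enzyme that makes the hydroxylated lipids of myelin.

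The oligodendrocyte markers themselves all had log2 fold changes below 0 (8 of 8, median -0.45), while 49.0% of all tested genes were above 0. None had a raw p under 0.05 in edgeR, and their summed level overlapped between the groups. All 8 were detected in every library. Whether the pieces of cortex differed in white matter was not tested.

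The receptor chain Il1r1 (chr1:40225080-40317257, plus strand, 15 merged exons) binds IL-1α and IL-1β and is found in the brain mostly on endothelium and some neurons. It had 5.16, 4.78, 7.56 and 8.03 CPM in CD 1 to CD 4 and 4.66, 6.58 and 3.37 CPM in KD 1 to KD 3. The 2 highest libraries were CD 3 and CD 4 and the 2 lowest were KD 1 and KD 3, but KD 2 lay above CD 1 and CD 2. The means were 6.38 ± 1.65 CPM in CD (SD, n = 4) and 4.87 ± 1.62 CPM in KD (SD, n = 3), a log2 fold change of -0.36 (SE 0.28, interval -1.01 to 0.28, edgeR adjusted p = 0.979). The log2 fold change of Il1r1 was -0.66 without KD 2 and -0.15 without KD 3. Without KD 2 the groups did not overlap for Il1r1 and Tnf, as for 11.5% of all tested genes. Between CD 1 and CD 2 and KD 1 and KD 2 alone, the libraries high in Xist, its log2 fold change was 0.19, and the direction was therefore not the same in that set.

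The co-receptor Il1rap (chr16:26581704-26730117, plus strand, 14 merged exons) had 56.6, 52.9, 46.5 and 70.7 CPM in CD 1 to CD 4 and 76.1, 49.1 and 32.8 CPM in KD 1 to KD 3. KD held both the highest and the lowest library. The means were 56.7 ± 10.2 CPM in CD (SD, n = 4) and 52.7 ± 21.9 CPM in KD (SD, n = 3), a log2 fold change of -0.09 (SE 0.26, interval -0.69 to 0.51, edgeR adjusted p = 0.990). It was 0.17 without KD 3 and 0.02 without CD 4. An antisense gene overlaps its exons by 552 bases. With the oligodendrocyte markers Il1rap had a Pearson r of 0.839 (exact permutation p = 0.00238, adjusted p = 0.0571) and a rho of 0.893 (exact permutation p = 0.0123, adjusted p = 0.0984), and r was 0.603 without CD 3 and KD 3. The relation was not particular to that list. With the astrocyte markers r was 0.834 (exact permutation p = 0.0179, adjusted p = 0.0857), rho was also 0.893, and r was 0.667 without the same libraries. With the endothelial markers r was 0.773 (exact permutation p = 0.0532, adjusted p = 0.213), rho was 0.857 (adjusted p = 0.114), and r was 0.619 without CD 4 and KD 3.

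For the remaining members with at least 50 counts in every library, the relations with cell type markers changed with the libraries included. Casp1 and the 7 endothelial markers had a Pearson r of 0.873 (exact permutation p = 0.0117, adjusted p = 0.0702) and a rho of 0.679 (exact permutation p = 0.110, adjusted p = 0.376), but r was 0.446 without CD 4 and KD 3. Il18 and the microglial markers had an r of 0.702 (exact permutation p = 0.0750, adjusted p = 0.257) and a rho of 0.607 (exact permutation p = 0.167, adjusted p = 0.400), with r at 0.511 without CD 4 and KD 1. Il1r1 and the endothelial markers had an r of 0.669 (exact permutation p = 0.0962, adjusted p = 0.289) and a rho of 0.500 (exact permutation p = 0.267, adjusted p = 0.457), and r was -0.27 without CD 4 and KD 3.

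Other relations were closer once the outermost libraries were left out. Pycard and the astrocyte markers had an r of 0.579 (exact permutation p = 0.165, adjusted p = 0.410) and a rho of 0.643 (exact permutation p = 0.139, adjusted p = 0.400), and r was 0.777 without CD 3 and KD 3. Il18 and the astrocyte markers had an r of 0.36 (exact permutation p = 0.430, adjusted p = 0.608) and a rho of 0.429 (exact permutation p = 0.354, adjusted p = 0.530), and r was 0.962 without the same 2 libraries. Il18 and the endothelial markers had an r of -0.012 (exact permutation p = 0.982, adjusted p = 0.982) and a rho of 0.179 (exact permutation p = 0.713, adjusted p = 0.815), and r was 0.897 without CD 4 and KD 3. Such a rise was not particular to these relations. Pycard went from 0.402 to 0.677 with the endothelial markers, and with the microglial markers Il33 went from 0.234 to 0.715 and Il1rap from 0.218 to 0.621. Casp1 and Il1r1 instead fell below 0 with the oligodendrocyte markers (-0.203 and -0.420) and the astrocyte markers (-0.307 and -0.438). Each of these later values rests on 5 libraries.

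The genes most like the other abundant members over the 7 libraries, among 15880 genes and as a description only, were Tmeff1 for Pycard (r = 0.959), Gltscr1 for Il18 (r = 0.973), Ankrd24 for Il1r1 (r = 0.960) and 1700047M11Rik for Il1rap (r = 0.986). The following ones were Wnk1 and Npm3 for Pycard, Zfp236 and Lrp8 for Il18, Ppip5k1 and Clcn2 for Il1r1, and Efcab14 and Heg1 for Il1rap, with r between 0.938 and 0.986.

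Tnf (chr17:35199381-35202007, minus strand, 4 merged exons) stayed near 0 counts. It had 12, 12, 4 and 10 counts in CD 1 to CD 4 and 2, 6 and 1 counts in KD 1 to KD 3, or 0.342, 0.401, 0.122 and 0.273 CPM and 0.0855, 0.176 and 0.0449 CPM. KD 1 and KD 3 were at or under 3 counts, the level that a count of 0 still allows, and CD 3 lay between the KD libraries. Pooled over the group, CD gave 38 counts or 0.283 CPM (exact Poisson 95% interval 0.200 to 0.388) and KD 9 counts or 0.113 CPM (0.0516 to 0.214), for counting error only. Its counts were too low for the filter, and under a filter that asked for a single count the log2 fold change was -1.36 (edgeR adjusted p = 0.923). Leaving out single KD libraries, with the usual filter, moved it between -2.05 (without KD 2, edgeR adjusted p = 0.969) and -1.02 (without KD 3). Tnf passed the filter in those fits, but only through CD libraries, where its counts were higher. Selection alone can therefore push these values below 0, and they are no support for a difference. No setting gave Tnf an adjusted p under 0.05. Of the 10 members, Tnf was thus the one near 0 counts, Il1b was next with 6 to 42 counts per library, and Il1a and Nlrp3 followed with 21 to 51 and 28 to 76 counts.

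In the 4 libraries high in Xist, 2 per diet, the log2 fold change was above 0 for Nlrp3 (0.65), Pycard (0.41), Casp1 (0.21), Il18 (0.08), Il1r1 (0.19) and Il1rap (0.20). It was below 0 for Il1a (-0.09), Il1b (-0.88), Il33 (-0.18) and Tnf (-1.40). Tnf passed the filter in this set only through its CD libraries, which by itself pushes its value below 0. Casp1, Il1r1 and Il1rap had the opposite direction with all 7 libraries. No member had an adjusted p under 0.05 in edgeR there. The groups did not overlap for Il1b and Tnf, but neither did they for 41.4% of all tested genes in this set. The other 3 libraries hold a single KD mouse and were not compared on their own.

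**Figure D4:**
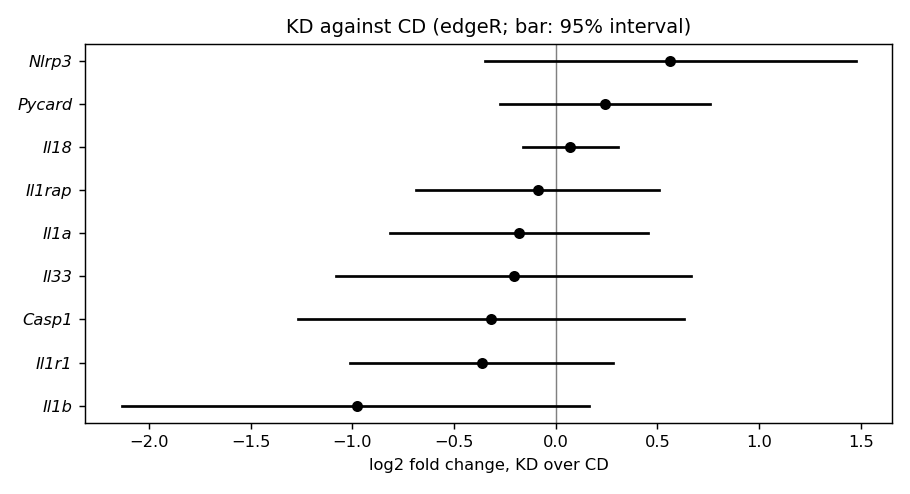
Log2 fold change of the 9 tested members, KD over CD (horizontal axis), from edgeR, with the 95% interval as a bar and a vertical line at 0. All 9 intervals include 0, from the narrow one of Il18 (-0.16 to 0.30) to the wide one of Il1b (-2.13 to 0.16).

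No other tested gene of the pathway had a raw p under 0.05 either. Of 118 further gene symbols in 7 lists, some of them older and newer names of the same gene, 113 were in the files. Of these, 90 were tested, with 49 log2 fold changes above 0, 41 below and a median of 0.02. In edgeR 0 of them had a raw p under 0.05, where 3.19% of all tested genes had one. DESeq2 gave 2. The smallest adjusted p was 0.979 in edgeR. In the list of inflammasome sensors and partners, 12 of 20 tested genes were above 0, and the 2 most abundant were Nek7, a kinase that NLRP3 needs to assemble (log2 fold change 0.03, SE 0.15), and Brcc3, which removes ubiquitin from NLRP3 (0.05, SE 0.09). Among caspases and gasdermins, 4 of 8 were above 0, with the gasdermin Dfna5 at a log2 fold change of -0.11 (SE 0.11).

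Among other IL-1 family genes 4 of 7 were above 0, led in level by the neuronal receptor-like genes Il1rapl1 (log2 fold change 0.26, SE 0.13) and Il1rapl2 (-0.06, SE 0.24). IL-1 receptor signalling had 12 above 0 and 12 below, with Tollip, an inhibitor of the receptor complex, at -0.0045 (SE 0.10) and the kinase Map3k7 at 0.01 (SE 0.08). In the TNF arm 7 of 10 were above 0, with Adam17, the protease that sheds TNF, at 0.10 (SE 0.12) and Birc2 at 0.08 (SE 0.08). Of the priming receptors 7 of 14 were above 0, with Tlr3 at 0.12 (SE 0.13) and Tlr7 at 0.18 (SE 0.37). Of the responsive cytokines and adhesion genes 3 of 7 were above 0, with Csf1 at 0.04 (SE 0.18) and Vcam1 at -0.13 (SE 0.20). The groups did not overlap for 1 of the 90 genes (1.11%), Nfkbib, an inhibitor of NF-κB, which was named after its values were seen, at 4.29 ± 0.371 CPM in CD (SD, n = 4) and 3.56 ± 0.139 CPM in KD (SD, n = 3).

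The 23 genes of these lists that were not tested had at most 31 counts in any library (Lcn2). Il6 reached 7 counts and Ccl2 8, both classic products of IL-1 and TNF signalling. For 7 genes no library had more than 3 counts, among them Il1rn, which encodes the natural antagonist of the IL-1 receptor, with at most 2, and Ccl5, with at most 3, and Il1f6 was at 0 in all 7 libraries.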

How the data were processed

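The authors aligned cortex RNA-seq reads to mm10 with STAR and deposited raw counts per gene symbol, 1 file per mouse, without normalization. Versions, annotation and strand setting are not given in the sources used here, so antisense genes may share reads. Totals were 22272883 to 36614954 counts. Value columns of other samples numbered 0.

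Diet groups and replicate numbers came from the labels. Members were found by symbol, and CPM divided counts by the library total. KD was compared with CD in edgeR 4.0.16 (R 4.3.3): filterByExpr with a minimum count of 10, TMM scaling, glmQLFit with robust estimation and glmQLFTest over 15881 genes, with Benjamini-Hochberg adjustment. The study names edgeR, TMM and a raw threshold of 0.01, but neither the test nor the filter. Relations with marker lists used log2 CPM (prior count 2) and exact permutation over 5040 pairings (scipy 1.17.1). The fit was tested on simulated data.

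Alternatives were DESeq2 1.42.0, other normalizations, filters and edgeR tests, a replicate block, and leaving out each library. The Xist settings were chosen after seeing the data. The members and lists were chosen with earlier results of these data known. Named genes were all members, the 2 most abundant genes of each list and any with a raw p under 0.05, the genes of the measured microglial proteins, and the 3 genes most like each member with at least 50 counts in every library; 1 gene that this rule names is not reported here. Coordinates are from GENCODE M21. Dfna5 and Il1f6 are older symbols of Gsdme and Il36a.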

Additional observations from a re-analysis of the deposited data

Results flagged for a closer look

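In CD 3, the mean log2 CPM of the oligodendrocyte markers was 6.39, lower than in the other 3 CD libraries by a gap that took up 0.927 of the group's whole range, beyond Dixon's 95% critical value for 4 samples. CD 3 was also the CD library with the lowest Il33 (39.9 CPM). Among the 22 values examined in this way (10 members and 12 marker lists) it was the 1 that passed, and chance passes about 1 in 20, or 1.1 of 22.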

How the results depend on the processing

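Of 165 alternative fold changes of the members, 156 kept their direction and 9 reversed. Those that kept it include fits of Tnf, which it entered only through CD libraries and which are no support. The smallest adjusted p of any member, 0.563 in edgeR, was also that of Tnf, in the 4 libraries high in Xist. Apart from Tnf the smallest was 0.620 in edgeR, for Il1b in the same set. Leaving out each library moved the log2 fold change of Pycard from -0.020 (without KD 1) to 0.37, of Casp1 from -0.65 to 0.15 (without CD 4), of Il33 from -0.58 to 0.029 (without KD 3) and of Il1rap from -0.45 to 0.17 (without KD 3), with Il1rap at 0.017 without CD 4. In the 4 libraries high in Xist, Casp1 was at 0.21, Il1r1 at 0.19 and Il1rap at 0.20. Leaving out each library gave 0 to 1 members with a raw p under 0.05 (Il1b without CD 3, Tnf without KD 2). Tnf passed the filter there only through CD libraries. Without each library in turn, 0 to 2 members had no overlap, also 2 in the high-Xist set, and 0 members had an adjusted p under 0.05. The genes at a raw p of at most 0.01 numbered 19 (without CD 1) to 211 (without CD 3), beside 51 with all libraries. Other pathway genes with a raw p under 0.05, 0 in edgeR, were 2 in DESeq2, 2 with at least 1 count as the filter, 1 in the likelihood-ratio test, 1 with Xist as a covariate, 4 in the high-Xist set and 1 to 3 without each library. The share of all genes under 0.05 was not counted in these settings, so these counts are no result about the pathway. All tested genes at a raw p of at most 0.01 numbered 120 in DESeq2, 65 with at least 1 count and 103 in the likelihood-ratio test. With Xist as a covariate they numbered 208, and in the high-Xist set 420. The cause of these shifts was not tested.

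Same-numbered CD and KD libraries deviated together with correlations of 0.237, 0.0589 and 0.238, and KD 2 correlated slightly better with CD 1 (0.0633). The labels name no pairing. Same-numbered libraries were also alike in Xist, high for numbers 1 and 2 and low for 3, so these correlations cannot tell whether they were paired. The replicate block gave 182 genes at a raw p of at most 0.01, 3 other pathway genes with a raw p under 0.05, and Casp1 at 0.12 on the log2 scale.

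With 3 KD mice the intervals of the members were 0.464 to 2.29 wide on the log2 scale, so moderate changes in most members could not be seen.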

Other observations

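Among the genes of the wider pathway, those with raw p-values nearest to the threshold were named after their values were seen. Nlrc5, a regulator of MHC class I genes, had 1.77, 1.54, 1.13 and 1.88 CPM in CD 1 to CD 4 and 3.72, 2.47 and 1.62 CPM in KD 1 to KD 3, and its log2 fold change was 0.73 (SE 0.33). Txnip, a glucose-responsive partner of NLRP3, had 62.7 CPM in CD 4, 20.03 to 25.8 CPM in the other CD libraries and 16.3 to 20.3 CPM in KD, with a log2 fold change of -0.79 (SE 0.36). As with Casp1, CD 4 was the highest library. Nfkbia, an inhibitor and target of NF-κB, had 15.2 to 17.9 CPM in CD and 13.04 to 16.3 CPM in KD, with a log2 fold change of -0.26 (SE 0.12). The adjusted p of all 3 in edgeR was 0.979.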
